A study of Rattus norvegicus with 4 samples.

Results

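The genes described here are the WNT ligands, their receptors, co-receptors and secreted antagonists, the R-spondins with their LGR receptors, and the effectors that carry the signal to the nucleus, in single cells of the rat anterior pituitary. Members were taken by symbol (Wnt, Fzd, Sfrp, Dkk, Rspo and Tcf7 genes followed by their numbers, Lgr4 to Lgr6, and *Lrp5*, *Lrp6*, *Lef1*, *Axin2*, *Ctnnb1*, *Wif1* and *Frzb*) when at least 1 UMI, a single counted transcript molecule, was found in 5 or more cells. Of the 30058 genes in the count matrix, 55 had such a symbol, and 49 were members: 14 ligands, 10 Frizzled receptors, 2 LRP co-receptors, 7 R-spondins or LGR receptors, 9 secreted antagonists and 7 effectors. The other 6 were *Wnt11* and *Wnt9b*, each found in 3 cells, *Wnt8b*, found in 1 cell, and *Dkk1*, *Wnt7a* and *Wnt8a*, for which no UMI was found. *Tcf7l2* is listed on 2 rows with different identifiers, and these were kept apart as *Tcf7l2* and *Tcf7l2-2*.

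Cells were dispersed from anterior pituitaries of postpubertal Sprague Dawley rats, with 1 pool of 4 pituitaries from females in diestrus at 44 days of age and 1 pool of 4 from males at 59 days. Each pool was run on 2 lanes, so that the lanes are technical replicates, p-values measure the spread between lanes or pools and not between animals, and sex cannot be told apart from pool or age. The lanes held 1861 and 1868 female cells and 2047 and 2085 male cells, with medians of 8559, 7971, 9413 and 9339 UMIs per cell, and lane values are given below in this order. The 2 Y-linked transcripts *Ddx3y* and *Eif2s3y* together gave 9 and 10 UMIs in the female lanes against 2049 and 2114 in the male lanes, and 30 barcode sequences occurred in more than 1 lane.

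After outliers and doublets were removed, 6852 cells remained: 2314 folliculostellate cells (FSC), 795 corticotrophs (C), 239 gonadotrophs (G), 88 thyrotrophs (T), 1888 somatotrophs (S), 486 lactotrophs (L), 547 leukocytes (Le), 134 endothelial cells (EC) and 361 erythrocytes (E). C, G, T, S and L are the hormone-producing cells (HPC). FSC are the nonendocrine, stellate cells of the gland. Markers that did not enter the classification included *Nr5a1*, found in 77.4% of G, *Cdh5*, in 91.0% of EC, and *Ptprc*, in 69.5% of Le. Others were more frequent outside their type. *Sox2* was found in 71.8% of FSC and 80.0% of posterior lobe cells, *Sox9* in 56.5% and 78.3% of the same, and *Mdk* in 88.2% of FSC and every pericyte. *Drd2* was found in 43.8% of L and 81.0% of melanotrophs, and *Cd52* in only 0.366% of Le and in 60.9% of E. In T the markers *Nrg4* and *Dpp10* were found in 20.5% and 22.7% of cells.

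WNT proteins are secreted, lipid-modified ligands that bind Frizzled receptors. With the co-receptors LRP5 and LRP6 they stabilize β-catenin, the product of *Ctnnb1*, which enters the nucleus and acts on target genes with transcription factors of the TCF and LEF family. Other ligands, of which WNT5A is the best known, act mainly through β-catenin-independent routes that include planar cell polarity. R-spondins bind LGR receptors and keep Frizzled receptors at the cell surface by clearing the ubiquitin ligases ZNRF3 and RNF43. SFRP proteins, FRZB and WIF1 bind the ligands, and DKK1 and its close relatives, which do not include the divergent DKK3, bind the co-receptors. In the embryo WNT signals from in and around Rathke's pouch take part in the growth of the pituitary and in the specification of its cell types.

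*Axin2*, which encodes a scaffold of the β-catenin destruction complex, is a widely used target gene of the pathway, and letters known as a TCF/LEF binding sequence stood in its promoter. Promoter windows from RefSeq (build GRCr8, 250 bases before to 50 bases after the gene start) were found for 32 members. The letters CTTTGAT, or ATCAAAG on the other strand, were in the windows of 2 of these, *Axin2* and *Tcf7*, and in 3.63% of all 33469 windows. The letters CTTTGAA, or TTCAAAG, were in the windows of 2, *Axin2* and *Fzd7*, and in 5.40% of all windows. Both matches of *Axin2* are shown because it was the only member with both, with the match in capitals and 11 bases on each side.
*Axin2*, chr10:94398542-94398570, plus strand, 232 to 226 bases before the start: tcagatttcgcCTTTGAAaaagctgtgtc
*Axin2*, chr10:94398642-94398670, plus strand, 132 to 126 bases before the start: ttactttcttgCTTTGATgttgggtagat
A match is a description of letters and was not tested as a binding site. *Axin2* itself was found at low levels throughout the gland, with 121 UMIs in FSC or 6.36 CPM (counts per 1000000 UMIs of that type), 6.40 CPM in G, 5.07 in T, 4.71 in C, 2.46 in S and 1.90 in L. In the 4 lanes of FSC it stood at 7.16, 4.90, 7.79 and 5.38 CPM, and it was not called highest in any type.

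The first question was in which cell type each member is highest. Sums of UMIs over each type in each sex were compared among 8 types (E were left out), and a gene was called highest in a type when it exceeded each of the other 7 at an adjusted p below 0.05 (edgeR quasi-likelihood test, Benjamini-Hochberg over all genes). Of the members, 27 had enough counts for the test. The other 22 held 2 to 103 UMIs in all 8 types together, with no level above 4.47 CPM in any type. Some of the 27 had enough counts only through the type where they are high, among them *Fzd2*, *Lgr6* and *Sfrp1* in FSC, *Wnt2* and *Dkk3* in EC, and *Rspo1* in Le. The counts of calls below thus describe the tested members and not all 49. Among the 8 types FSC held the most members: 29 of 49 were found in at least 1% of FSC, against 25 in T, 24 in EC, 22 in C, 22 in G, 14 in S, 14 in L and 10 in Le. In T, with 88 cells, these 25 were all members with any UMI. At 5% of cells the counts were 18 in FSC, 15 in EC, 10 in G, 8 in C, 7 in T, 6 in S, 4 in L and 3 in Le. Posterior lobe cells, left out of the comparison, held 30 members at 1% and 21 at 5%, and pericytes 28 and 20. With 60 and 51 cells, the 30 and 28 were all members with any UMI. Both populations kept outliers and doublets and were not thinned, so that their counts are not on a par with those of FSC. Shares over all genes were not counted, so that these values describe the members alone. In cells thinned to 2000 UMIs each the counts were 21 in FSC, 16 in EC, 9 in T, 8 in C, 8 in G, 7 in Le, 5 in S and 5 in L. The level of each member in each cell type is shown as a heat map.

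**Figure D1:**
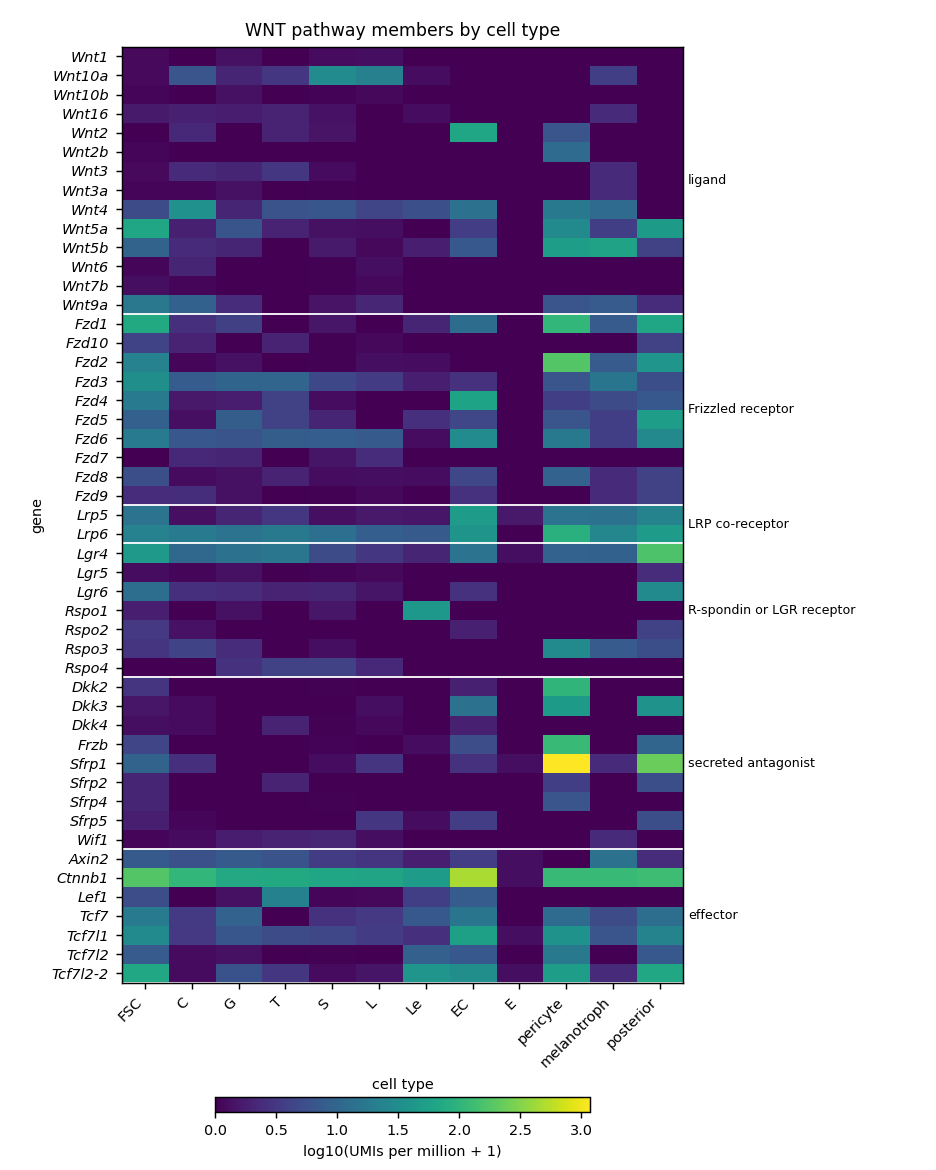
Level of each of the 49 members (rows, grouped by role) in 9 cell types and 3 populations left out of the type comparisons (columns), as log10 of CPM plus 1. FSC, EC, pericytes and posterior lobe cells hold the most members at high levels, *Wnt10a* stands in S and L, *Wnt4* in C and *Rspo1* in Le.

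In FSC 5 members were called highest, where 4.13% of the 13621 tested genes were: the Frizzled receptors *Fzd1*, *Fzd2* and *Fzd3*, the ligand *Wnt5a* and the R-spondin receptor *Lgr4*. *Fzd1* had the most UMIs of the Frizzled receptors and stood in FSC at 53.9 and 59.0 CPM in the female lanes and 82.8 and 85.5 in the male lanes. The next type was EC, at 11.2 CPM over all lanes, which FSC exceeded by a log2 change of 2.73 ± 0.41 (SE, adjusted p = 0.000172, edgeR). *Fzd1* was found in 39.0% of FSC, with a median of 6902 UMIs per cell, and in 0 of 486 L, which allows a share of cells with a UMI of up to 0.617%, although L had a median of 10207 UMIs. *Fzd2* was almost confined to FSC among the 8 types, with 413 of its 419 UMIs there, and it had enough counts for the test only through FSC. Its lane values in FSC were 18.3, 23.01, 22.0 and 23.3 CPM, and no other type exceeded 0.355 CPM.

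*Fzd3*, a Frizzled receptor known for its part in planar cell polarity and axon guidance, stood in FSC at 32.7, 36.0, 33.6 and 29.98 CPM. HPC also held it, at 9.13 CPM in T (9 UMIs), 8.88 in G, 6.74 in C, 3.60 in S and 2.54 in L. FSC exceeded T by a log2 change of 1.67 ± 0.59 (adjusted p = 0.0423, edgeR). That call was lost without the lane of 1868 cells (adjusted p = 0.0695), of 2047 cells (0.105) or of 2085 cells (0.0703), and with DESeq2 (0.109).

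*Wnt5a* had the most UMIs of all ligands, 1238 in FSC out of 1277 in the 8 types. It stood at 67.1 and 77.8 CPM in the female lanes of FSC and 57.4 and 61.1 in the male lanes, and was found in 35.5% of the cells. G came next, at 5.33 CPM, and FSC exceeded it by a log2 change of 3.42 ± 0.52 (adjusted p = 0.000127, edgeR). *Lgr4*, which had the most UMIs of the R-spondins and their receptors, stood in FSC at 34.2, 42.1, 49.2 and 48.8 CPM. It was also present in T at 15.2 CPM, in EC at 13.8, in G at 13.1 and in C at 9.63, and FSC exceeded T by a log2 change of 1.48 ± 0.40 (adjusted p = 0.0111, edgeR).

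**Figure D2:**
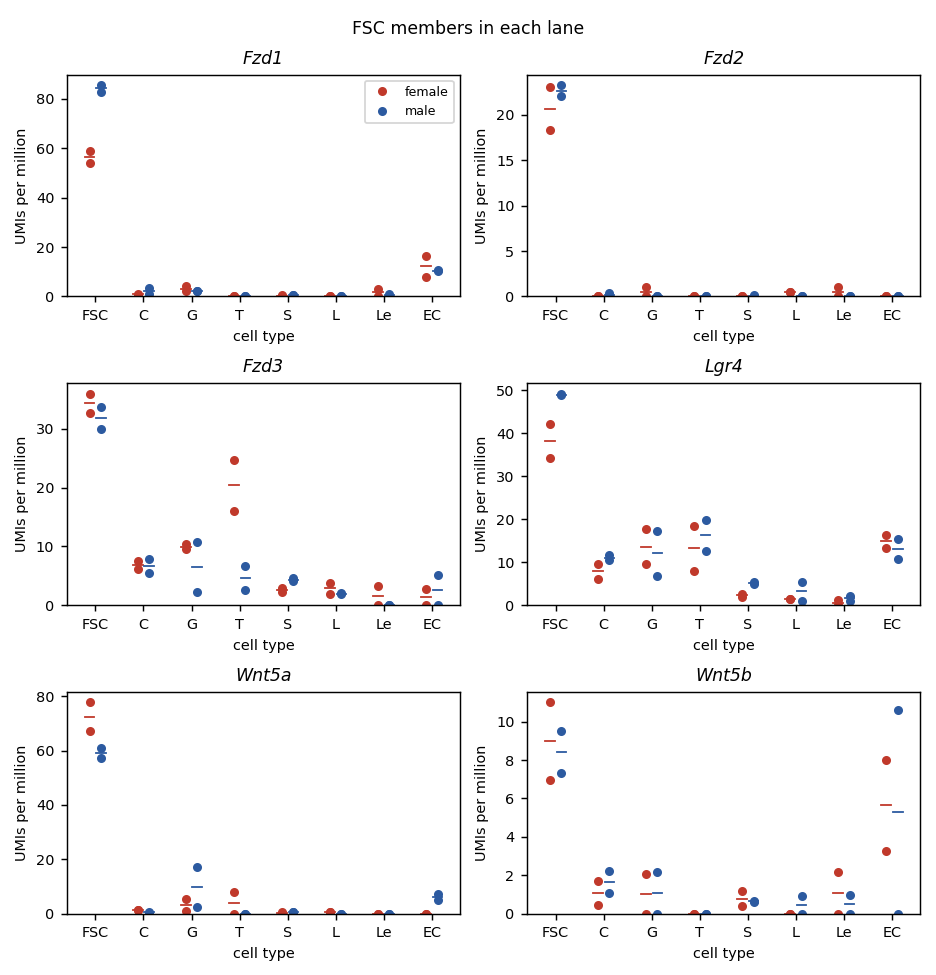
CPM of 6 members in 8 cell types (horizontal axis), 1 point per lane (red female, blue male) with a short line at the mean of the 2 lanes of a sex. All 4 FSC lanes lie above every lane of the other types for *Fzd1*, *Fzd2*, *Fzd3*, *Lgr4* and *Wnt5a*, while for *Wnt5b* FSC and EC overlap.

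FSC were then set against the 5 HPC types alone. Here 12 members were higher in FSC than in each of C, G, T, S and L, where 9.27% of all tested genes were, and none of the 27 was lower than in each, where 5.9% of all tested genes were. The count of 0 for lower members held at an unadjusted p below 0.05 and with DESeq2. Of the 27 tested members, 12 had their highest level in FSC, and members such as *Fzd2* passed the filter on low counts through FSC, so that the count is a description of these members and not of all 49. The 12 were, beside the 5 already described, the ligand *Wnt5b*, the receptor *Fzd4*, the co-receptor *Lrp5*, and the effectors *Ctnnb1*, *Tcf7l1*, *Tcf7l2* and *Tcf7l2-2*.

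Among the effectors, both rows of *Tcf7l2* were higher in FSC than in HPC. *Tcf7l2-2* stood at 68.9, 62.4, 68.2 and 67.4 CPM in the lanes of FSC, and the nearest HPC type was G at 4.97 CPM, a log2 change of 3.65 ± 0.41 (adjusted p = 4.76e-06, edgeR). The other row, *Tcf7l2*, held fewer UMIs, with 5.82, 5.87, 7.79 and 6.53 CPM in FSC and no HPC type above 0.355 (log2 change over G 3.90 ± 1.05, adjusted p = 0.00988). *Tcf7l1*, whose product acts largely as a repressor of WNT targets, stood at 27.7, 28.1, 29.3 and 24.8 CPM in FSC against 5.69 in G (log2 fold change 2.105 ± 0.459, adjusted p = 0.00193). The 3 rows were also found outside the pituitary types, *Tcf7l2-2* at 38.4 CPM in Le and *Tcf7l1* at 54.4 in EC. *Tcf7l2* stood at 7.85 CPM in Le, above its 6.57 over all lanes of FSC.

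*Ctnnb1*, the most abundant member, was expressed in all 8 types and differed less. Its level in FSC was 144, 187, 192 and 184 CPM, against 106 in C, 73.1 in T, 69.6 in G, 65.0 in S and 61.4 in L. FSC exceeded C, the nearest, by a log2 change of 0.54 ± 0.20 (adjusted p = 0.0415, edgeR), and without the lane of 1861 cells the adjusted p was 0.0574.

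*Wnt5b*, a close relative of *Wnt5a*, was rarer than *Wnt5a* in FSC, at 6.93, 11.02, 9.50 and 7.30 CPM. C came nearest among the HPC types at 1.39 (log2 fold change 2.44 ± 0.52, adjusted p = 0.00133, edgeR). *Fzd4* stood at 14.8, 13.5, 23.9 and 16.7 CPM in FSC and *Lrp5* at 8.95, 11.7, 16.7 and 17.1, while no HPC type exceeded 3.04 CPM of *Fzd4* or 2.03 of *Lrp5*. Both were nearest in T, which held only 3 and 2 of their UMIs. The calls of *Fzd4*, *Lrp5*, *Wnt5b*, *Tcf7l2* and *Fzd3* each fell when 1 lane was left out: *Fzd4* without the lane of 2085 cells, *Lrp5* without that of 2047 or 2085 cells, *Wnt5b* without that of 2047 cells, and *Tcf7l2* and *Fzd3* without that of 1868, 2047 or 2085 cells. Over the 4 settings without a lane, 8 to 12 members were above all HPC types.

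*Lrp6*, the co-receptor with the most UMIs, was by contrast held by every type. Its level ranged from 6.50 CPM in Le and 7.30 in L through 12.3 in S, 13.9 in G, 16.2 in T and 16.8 in C to 22.1 in FSC and 38.0 in EC. The FSC lanes gave 18.3, 22.8, 22.6 and 24.2 CPM and the EC lanes 39.1, 21.3, 60.3 and 36.0, so that these 2 types overlapped, and *Lrp6* was not called highest in any type. It was called highest in EC when sums per lane were fitted with lane as a term, as were *Fzd6* and *Tcf7l1*. In that fit *Fzd6* and *Wnt9a* were also above all HPC types in FSC. *Dkk3*, *Wnt5b* and *Tcf7l2* had too few counts per lane to enter it, so that their calls were not tested there.

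Of the pathway genes outside the membership rule (53 found, 44 tested), 3 were highest in FSC, where 4.13% of all tested genes were. *Vangl2*, a core gene of planar cell polarity, stood at 68.2 CPM in FSC and at most 7.77 elsewhere among the pituitary types and EC, and *Znrf3*, the ligase that R-spondins clear, at 30.5. The third was *Celsr1*, another gene of planar cell polarity. *Csnk1a1* and *Nkd1* joined these 3 above all HPC types, which made 5 of 44, where 9.27% of all tested genes were. *Celsr3*, a relative of *Celsr1*, was the 1 pathway gene below all HPC types, where 5.9% of all tested genes were. It stood at 0.315 CPM in FSC against 6.34 to 9.13 in the HPC types.

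EC had 5 members called highest, where 5.25% of all tested genes were. Among these, *Wnt2* and *Dkk3* had enough counts for the test only through EC. *Ctnnb1* led in EC at 430, 560, 429 and 463 CPM, a log2 change of 1.29 ± 0.21 over FSC (adjusted p = 0.000179, edgeR); its product also links cadherins to the cytoskeleton at cell junctions. *Fzd4*, a receptor known from retinal vessels, stood at 45.6, 45.3, 60.3 and 103 CPM in EC and exceeded FSC by a log2 change of 1.67 ± 0.41 (adjusted p = 0.00577). *Lrp5*, its co-receptor there, stood at 48.9, 50.7, 42.5 and 56.6 CPM and exceeded FSC by 1.75 ± 0.46 (adjusted p = 0.00742).

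*Wnt2* was the ligand of EC, with 75 of its 100 UMIs in these cells. Its lanes gave 45.6, 82.7, 78.0 and 41.2 CPM, it was found in 35.8% of EC, and in FSC it was found in 0 of 2314 cells, which allows a share of cells with a UMI of up to 0.130%. EC exceeded C, the next type at 1.28 CPM, by a log2 change of 5.42 ± 0.72 (adjusted p = 7.35e-05, edgeR), and with DESeq2 the adjusted p of this contrast was 0.0987. *Dkk3*, a divergent DKK gene, stood at 13.03, 8.0025, 10.6 and 25.7 CPM in EC on 15 UMIs. Its call was lost without the lane of 1861, 2047 or 2085 cells, with DESeq2 and in cells typed by marker genes alone. The 5 pericyte markers summed to 19.55 and 21.3 CPM in the female lanes of EC and to 294 and 510 in the male lanes, and *Dkk3* is also a gene of pericytes, but the part of these transcripts in the EC values was not tested. *Ctnnbip1*, an inhibitor of β-catenin, and *Sp5*, a WNT target, were the pathway genes called highest in EC. They were 2 of 44 tested, where 5.25% of all tested genes were called.

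In Le 1 member was highest, where 9.18% of all tested genes were: the R-spondin *Rspo1*. It had enough counts for the test only through Le. It stood at 35.4, 48.4, 40.9 and 47.3 CPM in the 4 lanes, and 158 of its 188 UMIs were in Le. It was found in 21.8% of Le (median of 6482 UMIs) and in 0 of 795 C (median of 11474 UMIs), which allows a share of cells with a UMI of up to 0.377%. The log2 fold change over S, the next type, was 6.25 ± 0.63 (adjusted p = 5.39e-06, edgeR).

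Of the 27 tested members, 1 was called highest in an HPC type. *Wnt4*, a ligand known from the development of the kidney and female reproductive tract, was highest in C, where 1.09% of all tested genes were. It stood at 30.1, 53.5, 26.5 and 33.2 CPM in C and was found in 28.9% of these cells, against 1.26% of G (median of 9937 UMIs). The next type was EC at 12.95 CPM on 15 UMIs, a log2 change of 1.81 ± 0.66 (adjusted p = 0.0360, edgeR). The call was lost without the lane of 1868 cells (adjusted p against EC 0.104) or that of 2047 cells, with library sizes alone (0.0757), with DESeq2 (0.130) and in cells typed by marker genes alone. Against the other HPC types the log2 fold changes ran from 2.24 ± 0.49 over S (adjusted p = 0.00333) to 5.18 ± 0.88 over G (adjusted p = 0.000693).

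No member was called highest in G, T, S or L, where 0.712%, 0.206%, 0.36% and 0.595% of all tested genes were, and the count was 0 in each at an unadjusted p below 0.05 and with DESeq2. The ligand *Wnt10a* was held by both S and L. It stood at 25.9, 32.2, 30.3 and 30.02 CPM in S and at 20.8 over all lanes of L, and the log2 fold change of S over L was 0.68 ± 0.54 (adjusted p = 0.510, edgeR). Next came C at 5.46 CPM, which S exceeded by 2.82 ± 0.58 (adjusted p = 0.00252) and L by 2.14 ± 0.63 (adjusted p = 0.0242). The level in L came mainly from females, with a log2 change of males over females of -2.56 ± 0.33, and its lanes are given below. The contrast of L with C was over both sexes and was not made within males. *Wnt10a* was found in 22.3% of S and in 0.173% of FSC. The pathway genes highest in L were *Sostdc1*, an antagonist of BMP and WNT signals, at 111 CPM, and *Tle4*, a co-repressor of TCF factors, at 89.5. They were 2 of 44 tested, where 0.595% of all tested genes were called.

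*Lef1* was at its highest in T and *Wnt9a* in FSC, without a call. *Lef1*, a factor of the TCF family, stood at 21.3 CPM in T on 21 UMIs, with 6.17 and 8.02 in the female lanes and 30.3 and 23.1 in the male lanes, against 6.91 in EC and 4.26 in FSC. *Wnt9a* stood at 17.9, 19.1, 13.9 and 14.2 CPM in FSC and at 8.03 in C, and no other type exceeded 1.42. With lane as a term, *Lef1* was called highest in T and *Wnt9a* in FSC, and *Wnt9a* was also called there without the lane of 1861 cells.

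Secreted antagonists were rare in the types compared so far. *Sfrp1*, the one with the most UMIs, stood at 7.38, 9.55, 7.60 and 9.42 CPM in FSC, in 6.05% of the cells, and *Frzb* at 3.36, 4.16, 2.85 and 3.46. *Dkk2*, *Sfrp2* and *Sfrp4* were nearly confined to FSC, with 36 of 38, 20 of 21 and 21 of 22 UMIs. *Wif1* had 30 of its 39 UMIs in S, at 1.14 CPM, beside 1.015 in T on 1 UMI. Beyond *Dkk3* in EC no antagonist was called with the settings described so far. *Sfrp1* was called above all HPC types in FSC with library sizes alone, with no filter on low counts and with outliers and doublets kept, and in the last case also highest in FSC. Where the filter was used, it had enough counts for the test only through FSC. *Frzb* was called above HPC with T left out. *Dkk2* was called higher in female FSC with outliers and doublets kept or without the lane of 1861 cells. *Sfrp5*, carried by very few cells of L, was called higher in male L with no filter.

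Of the populations left out of the comparisons, cells typed as pericytes, the cells on small vessels, numbered 51, melanotrophs 63 and posterior lobe cells 60. The pericyte name follows the study's rule, which rests on collagen genes, *Dcn* and *Lum*. Of the markers outside that rule, *Pdgfrb* was found in 70.6% of these cells and *Rgs5* in only 27.5%. In pericytes and in posterior lobe cells 4 of 9 antagonists were found in at least 5% of cells, against 1 in FSC and 0 in melanotrophs, with medians of 6698, 8900.5, 6902 and 10570 UMIs per cell. The 3 populations were described without a test, with exact Poisson intervals that cover counting error only. Outliers and doublets had been removed from the cell types but not from these 3 populations. *Sfrp1* reached 1174 CPM in pericytes (95% interval 1065 to 1290.4) on 428 UMIs and was found in 92.2% of these cells. *Frzb* reached 121 CPM (87.7 to 162) and *Dkk2* 101 (71.4 to 140), and *Dkk3* reached 46.6 (27.2 to 74.6).

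The same pericytes held the receptors *Fzd2*, at 178 CPM (138 to 227), and *Fzd1*, at 107 (76.1 to 146). For *Fzd2* this was above the 21.7 of FSC (19.7 to 23.9), so that its near restriction to FSC holds only among the 8 types. *Fzd1* was also above its level in FSC, 71.7 over all lanes, so that its call as highest in FSC likewise holds only among the 8 types. Posterior lobe cells numbered 1, 3, 25 and 31 in the 4 lanes, so that most came from males. They held *Lgr4* at 162 CPM (133 to 196), beside 44.1 in FSC, and *Sfrp1* at 232 (197 to 271). Melanotrophs, of which 59 came from males, held *Wnt5b* at 57.7 CPM (41.8 to 77.8), beside 8.62 in FSC (7.35 to 10.0) and 52.1 in pericytes (31.4 to 81.4). The 5 pericyte markers summed to between 14.4 and 18.9 CPM in the lanes of FSC.

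**Figure D3:**
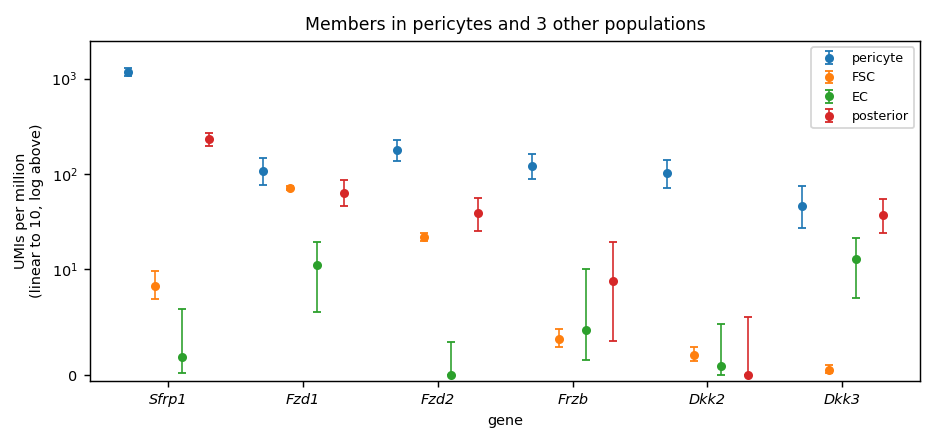
CPM (vertical axis, linear up to 10 and logarithmic above) of 6 members in pericytes, FSC, EC and posterior lobe cells, over all lanes, with exact 95% Poisson intervals as bars. *Sfrp1*, *Frzb*, *Dkk2* and *Fzd2* are highest in pericytes, with intervals that lie apart from the other populations.

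FSC are not uniform, and the members were compared between groups of them. Clustering FSC with the members left out of the gene set gave, at a resolution of 0.1, a group of 1582 cells led by *Gpha2*, *Sparcl1* and *Apoe*, a group of 718 led by *Fam46b*, *Cldn3* and *Rab25*, and a group of 14 led by *Tppp3* and *Tmem212*. The medians were 6969 and 6673 UMIs in the 2 large groups, and 50.4% and 49.3% of their cells were female. The values are a description, as the groups came from the same cells.

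*Wnt5b* differed between the 2 large groups, at 18.1 CPM in the *Cldn3* group and 2.47 in the *Gpha2* group. Its lanes ran from 13.4 to 26.1 in the former and from 1.59 to 3.51 in the latter, so that the groups did not overlap. *Fzd5* (14.1 against 3.83), *Lgr6* (20.8 against 6.90), *Axin2* (10.7 against 3.75) and the factor *Tcf7* (24.3 against 12.9) were likewise higher in the *Cldn3* group in all 4 lanes. So were *Lrp6* (29.1 against 17.6), *Tcf7l1* (32.4 against 24.8), *Tcf7l2* (9.24 against 5.02), *Tcf7l2-2* (78.5 against 60.0) and *Wnt4* (6.11 against 3.065). Shares over all genes that differ between these groups were not counted. *Frzb* showed the reverse, with 64 UMIs in the *Gpha2* group and 1 in the *Cldn3* group. *Fzd8* (5.45 against 2.70 CPM), *Lef1* (5.02 against 3.13), *Fzd9* and *Rspo3* were also higher in the *Gpha2* group in all 4 lanes. On fewer UMIs, *Sfrp4* had 20 in the *Gpha2* group and 1 in the *Cldn3* group, and *Sfrp2* had 2 and 18.

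Of the members highest in FSC, *Fzd2* stood at 22.0 and 21.5 CPM in the *Cldn3* and *Gpha2* groups and *Fzd3* at 31.6 and 33.6, in neither case with the same order in all lanes. *Fzd1*, at 63.7 and 75.4, and *Wnt5a*, at 55.2 and 71.8, were lower in the *Cldn3* group in each lane. *Lgr4* was higher in the *Cldn3* group, at 55.0 against 37.4, in each lane.

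**Figure D4:**
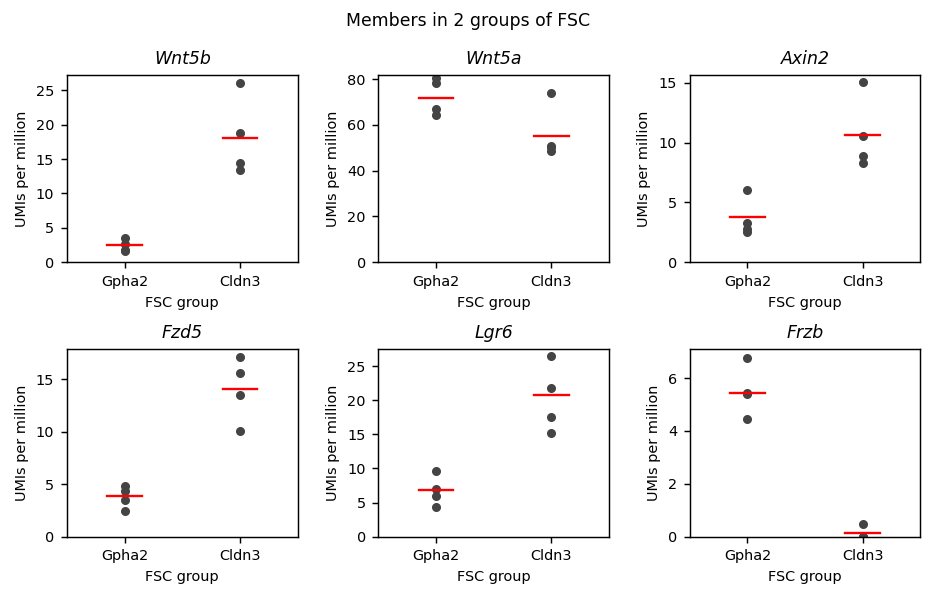
CPM of 6 members in the 2 large groups of FSC (horizontal axis, named by a leading gene), 1 point per lane, with a red line at the value over all cells. *Wnt5b*, *Axin2*, *Fzd5* and *Lgr6* lie higher in the *Cldn3* group and *Frzb* in the *Gpha2* group without overlap of lanes, and the lanes of *Wnt5a* overlap between the groups, although within each lane it is lower in the *Cldn3* group.

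The last comparison was between the sexes within each pituitary cell type, with sums per lane (2 lanes per sex, edgeR quasi-likelihood test). In L 1 of 4 tested members was higher in females, where 19.3% of all tested genes were, and none was higher in males, where 14.7% were. That member was *Wnt10a*. The female lanes of L held 28.2 and 26.7 CPM (59 and 57 UMIs) and the male lanes 7.27 and 7.16 (8 and 7 UMIs), and the lanes of the sexes did not overlap. The log2 fold change of males over females was -2.56 ± 0.33 (adjusted p = 1.16e-08).

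Female L were also deeper than male L, with medians of 20499 and 16169 UMIs per cell in the female lanes against 7581 and 6676 in the male lanes. With library sizes alone the median gene of L shifted by 0.673 on the log2 scale and *Wnt10a* by -1.91 (adjusted p = 2.02e-05), and with the 7 hormone genes left out of the totals *Wnt10a* changed by -2.55. Markers of S, in which *Wnt10a* stands at 29.7 CPM, were examined in L, and their part in the *Wnt10a* values was not tested. The 4 markers summed to between 3047 and 3262 CPM in the female lanes and between 3754 and 3983 in the male lanes, nearly all of it *Gh1*. *Ghrhr* was at 0 in all 4 lanes, *LOC680415* was found in 1 male lane, and *Cabp2* was at 1.91, 5.62, 1.82 and 4.09 CPM. For none of the 4 did the female lanes both exceed the male lanes.

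With the main settings S had the most members that differed, while FSC had more without the lane of 1861 or 1868 cells. In S 3 of 11 tested members were higher in females, where 12.9% of all tested genes were, and 2 were higher in males, where 13.3% were. *Wnt4* stood at 11.1 and 11.04 CPM in the female lanes and at 2.76 and 1.46 in the male lanes, a log2 change of -2.45 ± 0.27 (adjusted p = 2.09e-08, edgeR). Here too the gene had enough counts for the test only through the female lanes. All 4 settings without a lane kept this call, as did DESeq2. The 5 C markers in S summed to between 378 and 460 CPM in the female lanes and between 449 and 489 in the male lanes, nearly all of it *Pomc*. *Lmx1a* was at 0, *Avpr1b* was between 5.78 and 9.60, and *Crhr1* alone was higher in both female lanes, at 0.923 and 0.775 CPM against 0.263 and 0.365. The part of these transcripts in the *Wnt4* values was not tested.

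*Ctnnb1* was higher in male S, at 77.0 and 72.2 CPM against 44.1 and 57.5 (log2 fold change 0.50 ± 0.09, adjusted p = 6.16e-05, edgeR). *Lgr4* was higher in male S too, at 4.86 and 5.47 CPM against 2.59 and 1.94 (1.13 ± 0.32, adjusted p = 0.00859), and *Rspo4* (-1.33 ± 0.37, adjusted p = 0.00703) and *Tcf7* (-1.26 ± 0.43, adjusted p = 0.0289) were higher in female S. *Lgr4* is highest in FSC, and the 8 FSC markers in S summed to between 32.5 and 39.3 CPM in the female lanes and between 47.0 and 49.6 in the male lanes. Among them *Sox2* was at 2.95 and 2.71 CPM in the female lanes and 8.14 in both male lanes, and *Sox9* at 0.739 and 1.94 against 4.596 and 4.01. Their part in the *Lgr4* values was not tested. *Rspo4* rested on 47 and 29 UMIs in the 2 sexes and *Tcf7* on 28 and 18. The calls of *Lgr4*, *Rspo4* and *Tcf7* were lost with DESeq2 (adjusted p of 0.235, 0.169 and 0.363) and without some lanes: that of 1868 or 2085 cells for *Lgr4*, that of 1868 or 2047 cells for *Rspo4*, and any of the 4 for *Tcf7*.

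**Figure D5:**
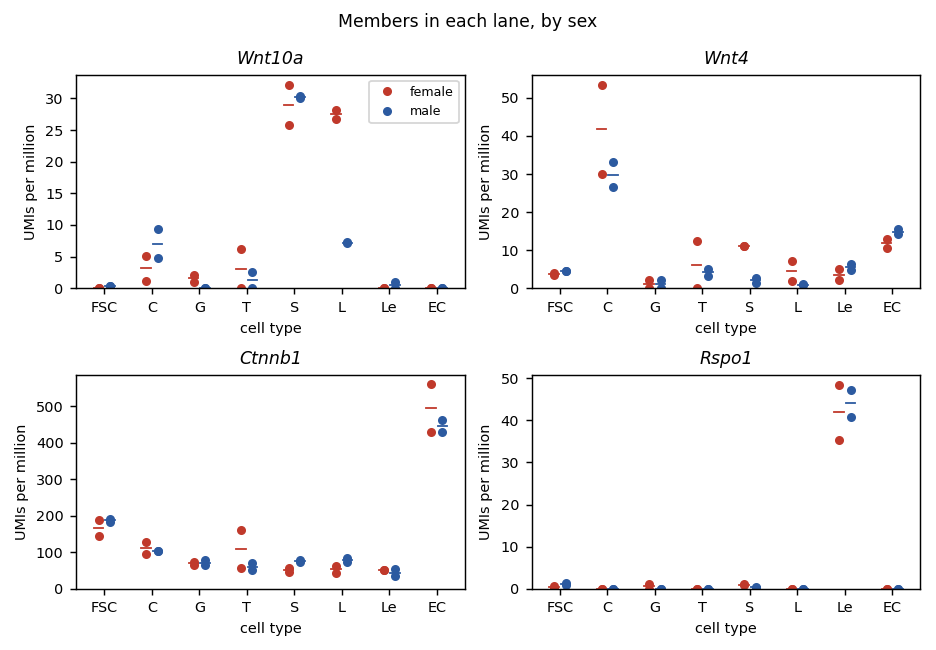
CPM of *Wnt10a*, *Wnt4*, *Ctnnb1* and *Rspo1* in 8 cell types (horizontal axis), 1 point per lane (red female, blue male) with a short line at the mean of the 2 lanes of a sex. *Wnt10a* is level between the sexes in S and higher in females in L, and *Wnt4* is higher in females in S.

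In FSC 2 of 27 tested members were higher in males, where 5.82% of all tested genes were, and 2 were higher in females, where 6.13% were. *Fzd1* was higher in males by a log2 change of 0.54 ± 0.09 (adjusted p = 0.000361, edgeR), in both male lanes, and this call held with DESeq2 and without any 1 lane. *Lrp5* was higher in males by 0.67 ± 0.19 (adjusted p = 0.0244), and *Wnt5a* was lower in males, with a log2 change of -0.33 ± 0.09 (adjusted p = 0.0288). *Rspo3* stood at 3.80 and 3.43 CPM in the female lanes and 0.380 and 0.577 in the male lanes, on 31 and 5 UMIs (-2.90 ± 0.59, adjusted p = 0.00278). It had enough counts for this test only through the female lanes, where it is high, so that its call is a description. Among the 8 types *Rspo3* was at its highest in C, at 3.21 CPM on 30 UMIs, beside 1.89 in FSC over all lanes. Pericytes held *Rspo3* at 27.4 CPM on 10 UMIs, and the 5 pericyte markers in FSC summed to between 16.55 and 18.85 CPM in the female lanes and between 14.44 and 16.53 in the male lanes. *Col1a1* (13.4 and 13.7 against 9.88 and 8.65), *Pdgfrb* (2.01 and 3.18 against 1.14 and 1.54) and *Rgs5* were higher in both female lanes, and *Dcn* was higher in both male lanes. Their part in the *Rspo3* values was not tested.

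The calls of *Lrp5*, *Wnt5a* and *Rspo3* depended on the settings. *Lrp5* was lost without the lane of 1861 cells (adjusted p = 0.194), 2047 cells (0.122) or 2085 cells (0.150), *Wnt5a* without that of 1868 (0.168), 2047 (0.254) or 2085 cells (0.107), and *Rspo3* without that of 2047 cells (0.0815). With DESeq2 the adjusted p was 0.501 for *Lrp5*, 0.434 for *Wnt5a* and 0.0720 for *Rspo3*.

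No member was called between the sexes in C (9 tested), G (4 tested) or T (1 tested), where 0.493%, 6.24% and 2.97% of all tested genes were higher in males and 0.955%, 8.14% and 1.5% in females. DESeq2 also called 0 there. At an unadjusted p below 0.05, *Wnt4* in C was higher in females and *Tcf7* in G was higher in males, and there was none in T. In C *Wnt4* had a log2 change of males over females of -0.51 ± 0.19 (adjusted p = 0.285, edgeR). Among the pathway genes outside the rule, 4 of 45 tested were higher in each sex in FSC, where 5.82% (males) and 6.13% (females) of all tested genes were. In S 4 of 36 were higher in males and 2 in females, where 13.3% and 12.9% were. In L 5 of 26 were higher in males and 2 in females, where 14.7% and 19.3% were. In G 1 of 18 was higher in each sex, where 6.24% and 8.14% were. In C 1 of 28 was higher in females, where 0.955% were: *Ccnd1*, a cyclin gene of the cell cycle. In T none of 6 was called.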

How the data were processed

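Dispersed anterior pituitary cells were measured by 10X Genomics 3′ single-cell RNA sequencing, 2 lanes for each sex. Per the labels and the methods, the authors used Cell Ranger 2.1 to count UMIs on the NCBI annotation of the rat genome Rnor6 with genes extended at their 3′ ends, then merged all lanes in its mapped normalization mode. The deposited values are whole-number UMI counts for 30058 genes in 7861 cells, with 18955509 to 24048021 UMIs per lane. Genes that share reads with a copy, such as both *Tcf7l2* rows, remain uncertain.

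The table marks lanes only by barcode suffix. They were matched to the sexes by the cells per lane that the study states. Cell types followed the marker gene rules of the study with Otsu thresholds (256 bins) per sex, and untyped cells took the type of their nearest neighbours. Cells of high mitochondrial share (275) or outlying depth (331) and doublets (196 found) were removed from the cell types. Pericytes, melanotrophs and posterior lobe cells were not filtered in this way.

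Sums of UMIs over each type in each sex (16 sums), or in each lane for the sexes, were tested with edgeR 4.0.16 in R 4.3.3 (TMM, quasi-likelihood, filterByExpr with a minimum count of 10, Benjamini-Hochberg over all genes tested). Members called in a comparison and the member with the most UMIs in each role were named with their lane values, and the rest by range and count. DESeq2 1.42.0 and the other alternatives are given in the closing section. Shares have Clopper-Pearson and levels exact Poisson intervals (95%), which cover counting error only, and a count of 0 allows up to 3 cells. The fits were tested on simulated counts. Members and lists were chosen with earlier results of these data known.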

Additional observations from a re-analysis of the deposited data

Results flagged for a closer look

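The change between the sexes was compared between 6 pairs of types (S, L, C and FSC) by an interaction of sex and type on the sums per lane (edgeR quasi-likelihood test, Benjamini-Hochberg over all genes tested), a test chosen after the data were seen. Members that had been tested within both types gave 6 differences, all in *Wnt10a*, *Wnt4* and *Ctnnb1*. The lanes are technical replicates of 1 pool per sex. Both types of a pair came from the same lanes, and lane was not a term in this fit.

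For *Wnt10a* the log2 change of males over females was lower in L than in S, a difference of -2.565 ± 0.338 (SE, adjusted p = 1.31e-07), where 25.4% of all genes tested in this pair differed. The change itself was -2.56 in L and 0.00 in S. Against C the difference was 3.564 ± 0.587 (C minus L, adjusted p = 3.98e-06, with 18.1% of genes differing).

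For *Wnt4* the change was 2.708 ± 0.427 higher in FSC than in S (adjusted p = 0.000138, with 9.78% of genes differing) and 1.938 ± 0.362 higher in C than in S (adjusted p = 0.000404, with 7.06% of genes differing). Female levels were above male levels in both lanes of S and below them in both lanes of FSC.

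For *Ctnnb1* the change was lower in C than in S by a difference of -0.6516 ± 0.150 (adjusted p = 0.00431, with 7.06% of genes differing). It was lower in L than in S by one of -0.5739 ± 0.197 (adjusted p = 0.0276, with 25.4% of genes differing). With library sizes alone the median gene of L shifted by 0.673 (log2), and *Ctnnb1* was called higher in males in both S and L. The difference between L and S was not tested with library sizes alone.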

How the results depend on the processing

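No paired analysis was possible because, between the sexes, the replicate number of each lane is not known. Types share lanes, and with sums per lane and lane as a term the members called were 6 highest in FSC, 7 in EC and 12 above all HPC types in FSC. The counts of members called moved by over 1.5 times as follows. Highest in C: 0 with library sizes alone, DESeq2, a threshold of 0.001, E in the fit or typing by marker genes alone, and 0 to 1 without a lane. Highest in FSC: 2 at 0.001 and 1 with E in the fit. Highest in EC: 3 with DESeq2, 1 at 0.001 and 1 with E. Highest in Le: 0 with E. Above all HPC types in FSC: 3 at 0.001. Highest in G, T, S or L: 1 (*Lef1* in T) with sums per lane. Leaving out T, an alternative chosen after the data were seen, kept every count within 1.5 times. Between the sexes, library sizes alone gave 4 members higher in male and 1 in female FSC, 1 in male G and 1 in male L; DESeq2 gave 1 and 0 in FSC and 1 and 1 in S; no filter on low counts gave 1 and 1 in FSC and 1 and 2 in L; 0.001 gave 1 and 0 in FSC and 1 and 1 in S; keeping outliers and doublets gave 1 in male FSC. Without a lane the counts ran from 1 to 4 in male and 0 to 3 in female FSC, 1 to 2 in male and 1 to 2 in female S, and 0 to 1 in female C. No member called with the main settings changed sign, and the cause of these changes was not tested. *Ctnnb1* in L, with a log2 change of males over females of -0.087 and no call in the main fit, did change sign. It was the member called higher in male L with library sizes alone. Over the alternatives for the named members, a type call against all its other types was lost in 57 cases and kept in 246. The nearest contrast could still pass where a call was lost, and members with 2 calls were counted under each. A sex contrast missed its threshold in 31 cases and passed it in 69. With library sizes alone the median gene shifted by 0.673 (log2) in L and 0.282 in G. T (88 cells) and EC (134 cells) limit every call that turns on them.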

Other observations

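Beside the calls, 1 antagonist was carried by few cells. *Sfrp5* gave 15 UMIs in FSC from 0.13% of the cells and 13 UMIs in L from 0.206% of the cells, so that its levels of 0.789 and 2.06 CPM do not describe these types as a whole. The same holds for its call in male L with no filter on low counts.

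*Lrp6*, *Fzd6* and *Axin2* were found in every pituitary cell type, and none of them was called highest in a type, except that *Lrp6* and *Fzd6* were called highest in EC with sums per lane and lane as a term. *Fzd6* stood at 16.9 CPM in FSC, 7.38 in S, 7.10 in T, 6.50 in L, 5.78 in C and 5.33 in G, and at 29.4 in EC. Melanotrophs, left out of the comparisons, held *Axin2* at 13.4 CPM on 10 UMIs, beside 4.71 in C, the other cells that express *Pomc*.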
